A study of Mus musculus with 9 samples.

Results

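Chemokines are small secreted proteins that direct the movement of leukocytes and of some other cells, and the genes described here are those of chemokines and their receptors in the mouse ovary. They were chosen by symbol: rows of the deposited table named Ccl, Cxcl, Cx3cl, Cx3cr, Xcl1, Ccr, Cxcr or Ackr with a number, which gave 68 rows of 54838. These rows hold 63 symbols, because 5 rows repeat the symbol Ccl19, Ccl21a, Ccl21c or Ccl27, and 7 rows under these symbols, among them all rows of Ccl21c and Ccl27, were listed at 0 in every library. Expression was measured by RNA sequencing of whole ovaries of adult mice collected 40 h after pregnant mare serum gonadotropin (PMSG), a hormone that makes follicles grow. The 9 libraries are 3 of wild type (WT), 3 of the genotype DKO LXR (DKO) and 3 of the genotype DKO LXR TG-AMH-LXRb (DKO_TG). In DKO, by its label, both liver X receptors (LXR), nuclear receptors for oxysterols, are knocked out, and DKO_TG as the same double knockout with an LXRb transgene named for AMH, the hormone of granulosa cells in growing follicles. All 3 groups received PMSG, and the labels give neither the strain, nor the number of animals behind a library, nor the sequence of the transgene. The values are RPKM (reads per kilobase of transcript scaled to the reads of the library, a level per gene length), and 3 values in a row are replicates 1, 2 and 3 of a group.

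Chemokines fall into the CC, CXC, CX3C and XC families by the spacing of their first cysteines. They act through receptors coupled to inhibitory G proteins, and the atypical receptors (Ackr genes) bind and clear chemokines without that signal. In the ovary, macrophages and other leukocytes are present in the stroma, in the theca around follicles and in regressing follicles and corpora lutea. Separate sets of chemokines are known for monocytes, for neutrophils and for lymphoid tissue. Those for monocytes are Ccl2, Ccl7 and Ccl12, with the receptor Ccr2, and Ccl8. Those for neutrophils are Cxcl1, Cxcl2 and Cxcl5, with Cxcr2, and those for lymphoid tissue are Cxcl13, Ccl19 and Ccl21. Cxcl12 and its receptors Cxcr4 and Ackr3 are also known outside leukocytes, in stroma, vessels and follicles.

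The upstream sequences of 6 chemokine genes are shown because they carry the motifs most often found among these genes. Each is the last 120 bases before the RefSeq start of the gene, 5′ to 3′ on the gene's strand, from RefSeq on build GRCm38.p6. Capitals mark matches to the NF-kappaB consensus, searched on both strands, and to TATAAA, searched on the gene's strand.
Cxcl1, chr5:90891125-90891244, plus strand: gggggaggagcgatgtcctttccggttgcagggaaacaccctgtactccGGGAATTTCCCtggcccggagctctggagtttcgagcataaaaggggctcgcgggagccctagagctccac
Cxcl2, chr5:90903779-90903898, plus strand: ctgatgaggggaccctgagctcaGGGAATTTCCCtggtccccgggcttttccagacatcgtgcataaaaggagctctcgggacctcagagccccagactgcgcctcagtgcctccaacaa
Cxcl3, chr5:90785981-90786100, plus strand: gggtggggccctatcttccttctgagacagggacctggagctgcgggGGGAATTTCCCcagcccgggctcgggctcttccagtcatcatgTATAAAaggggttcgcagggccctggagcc
Ccl9, chr11:83578637-83578756, minus strand: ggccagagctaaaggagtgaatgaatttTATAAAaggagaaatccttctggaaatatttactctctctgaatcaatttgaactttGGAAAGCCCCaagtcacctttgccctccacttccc
Cxcl13, chr5:95956819-95956938, plus strand: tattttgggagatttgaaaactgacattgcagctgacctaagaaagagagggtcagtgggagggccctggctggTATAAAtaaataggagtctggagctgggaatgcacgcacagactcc
Ccl8, chr11:82115065-82115184, plus strand: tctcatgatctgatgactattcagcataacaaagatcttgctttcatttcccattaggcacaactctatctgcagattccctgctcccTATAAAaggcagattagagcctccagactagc

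Cxcl1, Cxcl2 and Cxcl3, neighbours on chromosome 5, hold the same 11 letters GGGAATTTCCC, which match the NF-kappaB consensus on both strands, 71, 97 and 73 bases before the start. In Ccl9 the consensus matched on the opposite strand, and Cxcl13 and Ccl8 had TATAAA 46 and 32 bases before the start. RefSeq windows were found for 44 of the 63 symbols, 24 of the 34 tested, with 51 windows in all because some genes have several starts. Within 250 bases before the start, the NF-kappaB consensus was in 17.6% of these windows and in 3.90% of all 32851 windows of the table, and TATAAA was in 23.5% and 7.59%. The 9 windows with the NF-kappaB consensus were those of Ackr2, Ccl20, Ccl9, Ccr3, Ccr6, Cxcl1, Cxcl10, Cxcl2 and Cxcl3. Of these genes only Ccl9, Cxcl1 and Cxcl10 were tested. The interferon response motif, 2 copies of GAAA with 2 bases between them, searched on both strands, was in 5.88% of the windows, namely those of Ccl19, Cxcl10 and Cxcl14, and in 2.98% of all. The PU.1 core GAGGAAGT, on both strands, was in 1.96% and in 2.44% of all windows. The LXR element, 2 copies of AGGTCA in the same direction with 4 bases between them, on both strands, was in 0 of 51 windows and in 0.0152% of all. These are letter matches and no measurement of binding, and a chemokine gene with the same match could be at very different levels: Cxcl3 was at or near 0 in all libraries and Ccl9 between 0.925 and 5.66 RPKM.

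Of the 68 rows, 34 reached 0.5 RPKM in 3 libraries or more and were tested, and 34 were not. Among the tested rows are 16 CC ligands, 2 pseudogenes of Ccl19, 6 CXC ligands, Cx3cl1, the receptors Ccr1, Ccr2 and Ccr10, 3 CXC receptors, Cx3cr1 and the atypical receptor Ackr3. Only 18 of the 34 reached 0.5 in all 9 libraries, and Ccl4 and Cxcl1 passed through the DKO libraries alone. Ccl7, Cxcl10, Cxcl13 and Cxcr3 also reached 0.5 in fewer than 3 libraries outside DKO. Ccl25 and Ccr10 reached it in all DKO and DKO_TG libraries and in 0 WT libraries. Counts over the tested rows thus do not stand for all 68. The plot of members by library shows how far apart their levels are. Ccl21a and Ccl21b, ligands of Ccr7 that draw dendritic cells and T cells to lymphatic vessels and lymph nodes, made up 40.1% to 68.7% of the summed ligand RPKM of a library. Cxcl14 and Cxcl12 together made up 8.12% to 16.7%. The summed level of all ligand rows came to 141 ± 8.90, 305 ± 66.7 and 164 ± 42.0 RPKM for WT, DKO and DKO_TG (SD, n = 3 each).

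**Figure D1:**
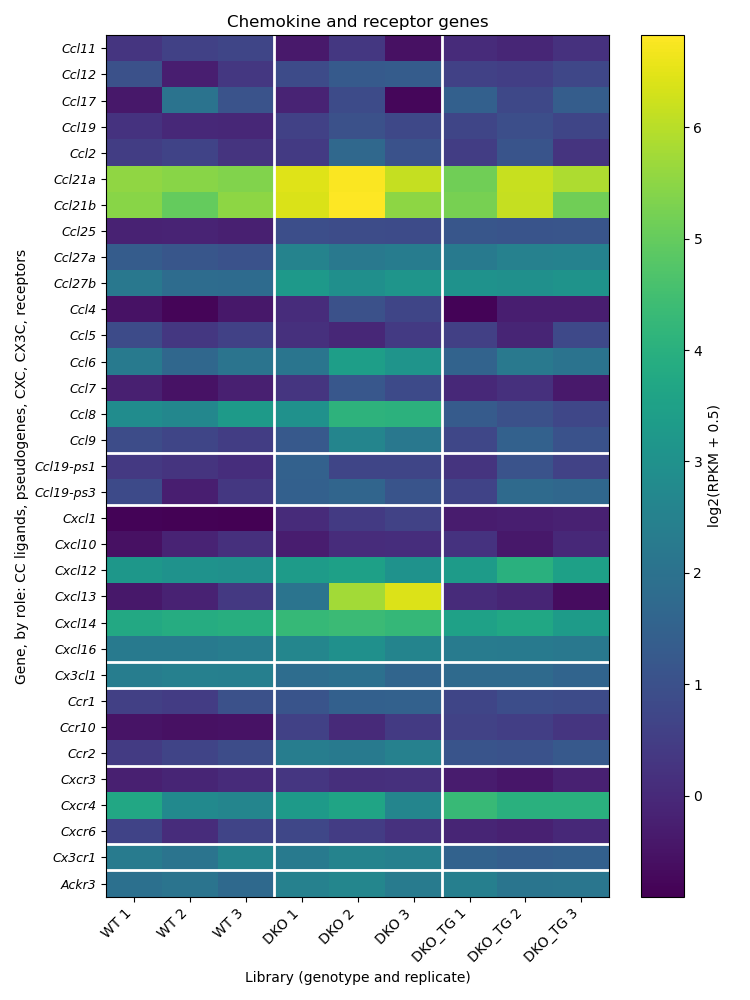
Level of 33 tested chemokine and chemokine receptor genes, as log2(RPKM + 0.5), in each of the 9 libraries. Columns are libraries grouped by genotype and rows are genes ordered by role. Ccl21a and Ccl21b are the highest rows, and Cxcl13 changes most between columns.

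Several properties of the whole series touch the results. Between 40.1 M and 59.4 M reads were recovered per library. Nr1h3 (LXRa) was at 4.12 to 5.47 RPKM in WT and 0.538 to 1.11 in the other 6 libraries, and Nr1h2 (LXRb) at 15.2 to 22.5 and 5.14 to 7.79. Nr1h2 did not differ detectably between DKO_TG and DKO (log2 change -0.18, adjusted p = 0.621 in limma), so the presence of the transgene was not checked by these values, and reads of a transgene need not be counted under Nr1h2. Malat1 and Neat1, RNAs kept in the nucleus, summed to 1.89 to 11.9 RPKM in WT, 218 to 279 in DKO and 296 to 337 in DKO_TG. Every difference from WT below moves with that difference, and its part in them was not tested. Amh was at 13.3 to 22.1 RPKM in WT, 6.97 to 14.1 in DKO and 8.79 to 10.3 in DKO_TG. The defining markers of the ovary, among them Foxl2 and Fshr of granulosa cells, were present in every library, and Ly6g of neutrophils was at 0 in all WT and DKO_TG libraries.

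In DKO ovaries, 21 of the 34 tested chemokine and receptor genes were higher than in WT and 2 were lower. Cxcl13, which attracts B cells, changed most, and Ccr2, a receptor of monocytes, also rose by more than 1 on the log2 scale. Among the other genes that rose were 10 CC ligands and both Ccl19 pseudogenes, Cxcl1, Cxcl14 and Cxcl16, the receptors Ccr1 and Ccr10, and Ackr3. Of the 21, 6 lie together on chromosome 4 (Ccl19, both its pseudogenes, Ccl21a, Ccl27a and Ccl27b). They have near-identical copies that can share reads, so they are not separate evidence. Ccl11, an eosinophil chemokine, and Cx3cl1, the membrane-bound ligand fractalkine, fell. A gene was called in limma, fitted over all 18889 tested genes on log2(RPKM + 0.5), at a Benjamini-Hochberg adjusted p under 0.05. This was so for 56.7% of all tested genes, 30.8% higher and 25.9% lower. The median log2 change of the 34 was 0.76, and that of all genes tested was 0.02. For 20 of the 34 the lowest DKO library was above the highest WT library, against 32.6% of all genes, and for 1 the DKO libraries were all lower, against 28.6% of all genes. Ccl4, Ccl7, Cxcl1, Cxcl13 and Cxcr3 are among the 20, and all but Cxcr3 are among the 21. They were tested only because of their DKO values, so they are no support for the direction of the set. Ccl25 and Ccr10, also among the 20 and the 21, were below 0.5 RPKM in all WT libraries. They passed the filter only through DKO and DKO_TG, so they are no such support either. With quantile normalization 10 of the 34 were higher and 3 lower. TPM scaling moved the median of all genes to 0.52, and scaling to the plain total of reads moved it to 0.28. The share of called genes that were higher went from 54.4% to 90.4% and 78.1%, and 27 and 26 members were then higher with 0 and 1 lower. In bulk tissue, more cells of a type and more RNA per cell cannot be told apart, and this holds for all values here.

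**Figure D2:**
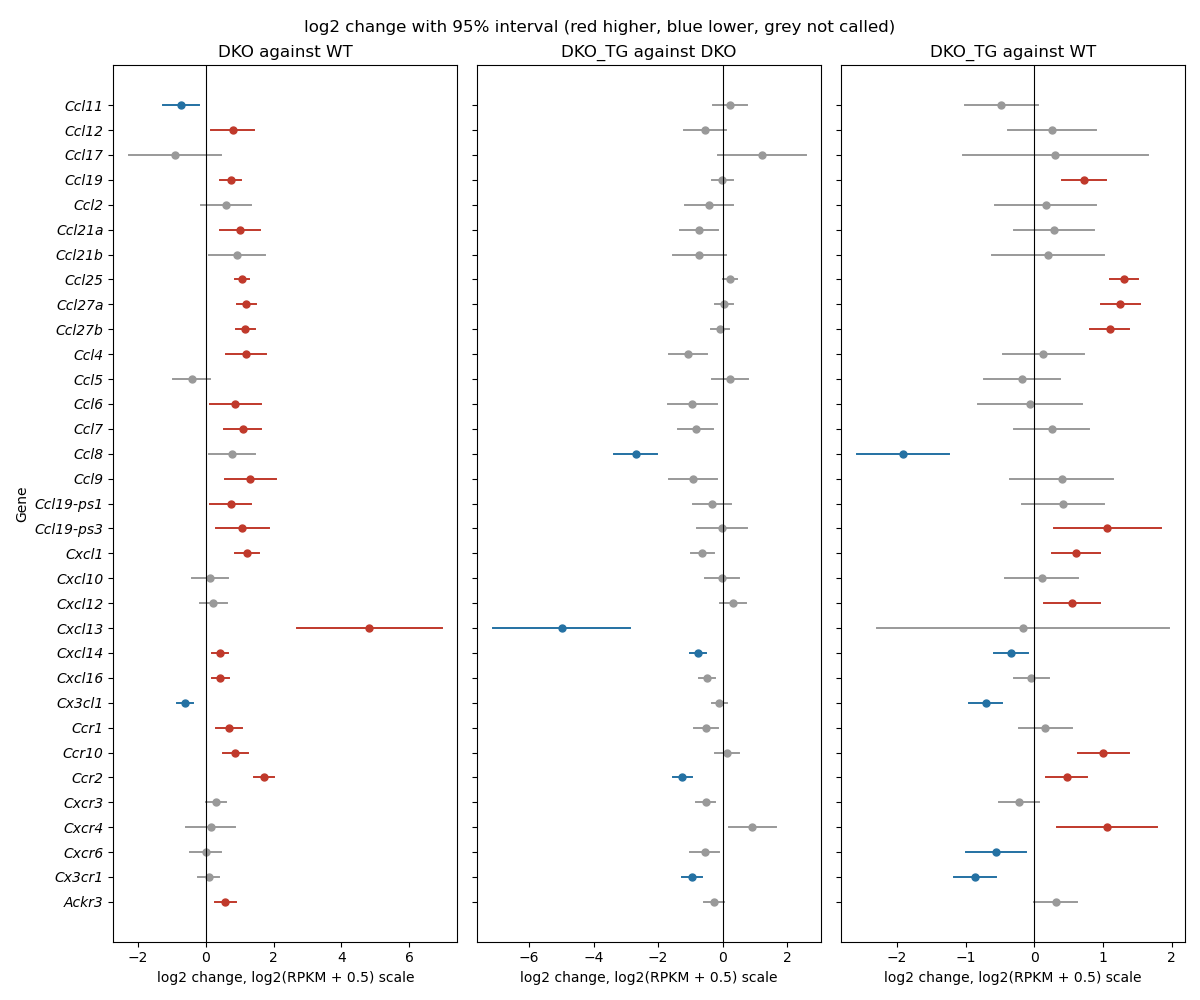
Log2 change of 33 tested genes, on the log2(RPKM + 0.5) scale, with its 95% interval from limma, for the 3 comparisons. Points are genes ordered by role and the zero line is drawn. Cxcl13 lies farthest from 0 in DKO against WT and in DKO_TG against DKO, and the intervals of Ccl25, Ccl27a and Ccl27b are above 0 in both comparisons with WT.

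Among the CC ligands that lie side by side on chromosome 11 (82035571 to 82305690, build mm10), the members moved apart. Ccl2 had RPKM values of 0.902, 1.06 and 0.691 in the WT libraries, 0.824, 2.78 and 1.57 in the DKO libraries and 0.919, 1.65 and 0.706 in the DKO_TG libraries, and Ccl2, the main ligand of Ccr2, was not called (log2 change 0.60, adjusted p = 0.145 in limma). Ccl7 had RPKM values of 0.354, 0.195 and 0.362 in the WT libraries, 0.707, 1.79 and 1.28 in the DKO libraries and 0.486, 0.632 and 0.276 in the DKO_TG libraries. All DKO values of Ccl7, another ligand of Ccr2, were above all WT values, and it rose by 1.09 ± 0.24 (SE) on the log2 scale (adjusted p = 0.00496 in limma), a call lost with quantile normalization. Ccl7 was tested only because of its DKO values. Ccl12 had RPKM values of 1.50, 0.333 and 0.771 in the WT libraries, 1.31, 1.91 and 2.02 in the DKO libraries and 0.992, 0.943 and 1.16 in the DKO_TG libraries. Ccl12, the mouse relative of Ccl2, overlapped between the groups and rose by 0.79 (adjusted p = 0.0390 in limma), a call lost in 11 of 20 alternatives, among them without WT replicate 2 or 3, DKO replicate 2 or 3, or any one of the DKO_TG libraries. Ccl8 had RPKM values of 6.79, 5.82 and 9.32 in the WT libraries, 7.61, 16.5 and 16.1 in the DKO libraries and 2.01, 1.51 and 1.18 in the DKO_TG libraries. The WT and DKO libraries of Ccl8, a monocyte chemokine, overlapped through DKO replicate 1, and the change was just outside the threshold (log2 change 0.78, adjusted p = 0.0503 in limma). Ccl11 had RPKM values of 0.726, 1.01 and 1.15 in the WT libraries, 0.271, 0.782 and 0.184 in the DKO libraries and 0.530, 0.445 and 0.649 in the DKO_TG libraries. Ccl11 fell by 0.73 on the log2 scale (adjusted p = 0.0261 in limma), and that call was lost in 8 of 19 alternatives, among them without WT replicate 2 or 3 or DKO replicate 1 or 3.

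The second group of CC ligands on chromosome 11 (83525778 to 83664683) holds the macrophage inflammatory proteins and Ccl5. Ccl9 had RPKM values of 1.35, 1.14 and 0.925 in the WT libraries, 1.88, 5.66 and 4.07 in the DKO libraries and 1.17, 2.34 and 1.57 in the DKO_TG libraries. Ccl6 had RPKM values of 4.27, 2.70 and 3.74 in the WT libraries, 3.77, 10.3 and 8.11 in the DKO libraries and 2.43, 4.16 and 3.63 in the DKO_TG libraries. Both genes encode chemokines made mainly by myeloid cells, and in both DKO replicate 1 was close to WT while replicates 2 and 3 were well above it. Ccl9 rose by 1.32 ± 0.33 (SE, adjusted p = 0.00872) and Ccl6 by 0.87 (adjusted p = 0.0494 in limma). The call of Ccl6 was lost in 14 of 20 alternatives, among them the omission of any library other than DKO replicate 1. Ccl4 had RPKM values of 0.198, 0.0677 and 0.251 in the WT libraries, 0.562, 1.53 and 1.14 in the DKO libraries and 0.0621, 0.329 and 0.335 in the DKO_TG libraries. Ccl4, a macrophage inflammatory protein, was below 0.5 RPKM in all WT libraries, was higher in all DKO libraries, and rose by 1.19 (adjusted p = 0.00464 in limma, 0.0104 without the filter). It was tested only because of its DKO values, so that call is no support for the direction of the set. Ccl5 had RPKM values of 1.32, 0.768 and 0.992 in the WT libraries, 0.631, 0.475 and 0.828 in the DKO libraries and 0.961, 0.427 and 1.23 in the DKO_TG libraries. Ccl5, the T cell chemokine RANTES, went the other way without a call (log2 change -0.41, adjusted p = 0.173 in limma). Apart from that of Ccl6, the calls in this group were lost with quantile normalization alone (adjusted p = 0.119 for Ccl4 and 0.0526 for Ccl9 in limma).

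The 7 genes on chromosome 4 between 41769467 and 42773993 include the homeostatic chemokines of lymphoid tissue and skin. Ccl21a had RPKM values of 46.0, 43.4 and 40.3 in the WT libraries, 87.7, 109.8 and 70.1 in the DKO libraries and 34.9, 72.4 and 58.0 in the DKO_TG libraries. Ccl21b had RPKM values of 43.2, 31.5 and 45.4 in the WT libraries, 83.6, 113 and 45.2 in the DKO libraries and 37.7, 70.4 and 35.1 in the DKO_TG libraries. Ccl21a was higher in every DKO library than in any WT library (log2 change 1.01 ± 0.26 SE, adjusted p = 0.00926 in limma). Ccl21b overlapped through DKO replicate 3 and was not called (log2 change 0.92, adjusted p = 0.0545 in limma). Ccl19 had RPKM values of 0.680, 0.490 and 0.477 in the WT libraries, 1.01, 1.52 and 1.22 in the DKO libraries and 1.13, 1.42 and 1.13 in the DKO_TG libraries. Ccl27a had RPKM values of 2.05, 1.73 and 1.54 in the WT libraries, 5.40, 4.19 and 4.54 in the DKO libraries and 4.41, 5.10 and 5.23 in the DKO_TG libraries. Ccl27b had RPKM values of 4.06, 3.05 and 2.97 in the WT libraries, 8.96, 7.20 and 8.31 in the DKO libraries and 7.67, 7.43 and 7.94 in the DKO_TG libraries. Ccl19, the other ligand of Ccr7, and Ccl27a and Ccl27b, genes of a skin chemokine that binds Ccr10, had no overlap between WT and DKO. Their log2 changes were 0.73, 1.20 and 1.17 (adjusted p = 0.00257, 9.02e-05 and 0.000102 in limma), the first lost with quantile normalization. Ccl19-ps1 had RPKM values of 0.801, 0.684 and 0.570 in the WT libraries, 2.33, 1.15 and 1.12 in the DKO libraries and 0.689, 1.62 and 1.04 in the DKO_TG libraries. Ccl19-ps3 had RPKM values of 1.28, 0.345 and 0.767 in the WT libraries, 2.23, 2.56 and 1.65 in the DKO libraries and 1.08, 2.90 and 2.73 in the DKO_TG libraries. The 2 unprocessed pseudogenes of Ccl19 were also called (log2 change 0.73 and 1.08, adjusted p = 0.0393 and 0.0254 in limma). The call of Ccl19-ps1 was lost in 9 of 20 alternatives, among them without any one of the WT libraries, DKO replicate 1 or DKO_TG replicate 3. That of Ccl19-ps3 was lost in 7 of 20, among them without WT replicate 2 or 3 or DKO replicate 1 or 2. The Ccl19, Ccl21 and Ccl27 genes have near-identical copies here, so reads can be split between them and the single values are uncertain. The 5 markers of lymphatic endothelium, a known source of Ccl21, summed to 9.49 to 10.9 RPKM in WT, 8.32 to 13.5 in DKO and 7.17 to 9.55 in DKO_TG. DKO replicate 3 had the highest sum. In DKO against WT 0 of the 5 rose and 1 fell in limma, where 30.8% and 25.9% of all genes did (2 at an unadjusted p under 0.05, 1 in limma-voom). The 1 that fell was Flt4 (log2 change -0.59, adjusted p = 0.00112 in limma). The markers of lymph node stroma summed to no more than 0.130 RPKM in any library.

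Ccl25 had RPKM values of 0.396, 0.408 and 0.361 in the WT libraries, 1.45, 1.34 and 1.32 in the DKO libraries and 1.75, 1.64 and 1.68 in the DKO_TG libraries. Ccl25, a chemokine of thymus and gut whose receptor is Ccr9, was tight within each group and higher in DKO (log2 change 1.07 ± 0.09 SE, adjusted p = 2.78e-05 in limma). It shares 204 exon bases with Elavl1 on the opposite strand, and since the use of strand in counting is not given, its reads are uncertain. Ccl17 had RPKM values of 0.255, 3.57 and 1.61 in the WT libraries, 0.418, 1.30 and 0.0892 in the DKO libraries and 2.23, 1.22 and 2.11 in the DKO_TG libraries. Ccl17, a ligand of Ccr4, spread more within WT and within DKO than any other tested member (coefficient of variation 91.9% and 104%), and was not called (log2 change -0.91, adjusted p = 0.214 in limma).

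The CXC ligands held the gene that changed most. Cxcl13 had RPKM values of 0.247, 0.389 and 0.792 in the WT libraries, 3.72, 54.0 and 84.8 in the DKO libraries and 0.535, 0.419 and 0.140 in the DKO_TG libraries. All DKO libraries of Cxcl13 were above all others, but they spread from 3.72 to 84.8, with replicate 1 far below the other two. Cxcl13 (chromosome 5, 95956951 to 95961068, plus strand) rose by 4.83 ± 0.94 (SE) on the log2 scale (adjusted p = 0.00266 in limma, 0.0531 in limma-voom on recovered reads). It was tested only because of its DKO values. It made up 0.169% to 0.542% of the summed ligand RPKM in WT, 1.49%, 14.2% and 29.5% in DKO, and 0.0925% to 0.412% in DKO_TG. Cxcl1 had RPKM values of 0.0582, 0.0477 and 0.0331 in the WT libraries, 0.531, 0.816 and 1.04 in the DKO libraries and 0.295, 0.334 and 0.364 in the DKO_TG libraries. Cxcl1, the neutrophil chemokine KC, stood on 3 to 5 reads in each WT library and 51, 94 and 128 in the DKO libraries, and rose by 1.23 on the log2(RPKM + 0.5) scale (adjusted p = 0.000288 in limma, 0.000492 without the filter). Like Ccl4, it passed the filter through DKO alone. That scale understates the change of so low a gene, and the log2 change ran from 0.50 to 3.95 over the alternatives.

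Cxcl14 had RPKM values of 13.1, 14.2 and 15.0 in the WT libraries, 18.7, 20.0 and 18.3 in the DKO libraries and 11.1, 12.6 and 9.58 in the DKO_TG libraries. Cxcl16 had RPKM values of 4.34, 4.28 and 4.72 in the WT libraries, 5.79, 7.42 and 5.46 in the DKO libraries and 4.45, 4.34 and 4.08 in the DKO_TG libraries. Cxcl14, a chemokine of epithelium and stroma, and Cxcl16, the membrane-bound ligand of Cxcr6, had no overlap between WT and DKO. Cxcl12 had RPKM values of 8.66, 7.63 and 7.44 in the WT libraries, 9.66, 10.8 and 7.74 in the DKO libraries and 9.68, 15.5 and 10.7 in the DKO_TG libraries. Cxcl10 had RPKM values of 0.174, 0.417 and 0.625 in the WT libraries, 0.312, 0.549 and 0.577 in the DKO libraries and 0.664, 0.246 and 0.499 in the DKO_TG libraries. Cxcl12 and the interferon-induced Cxcl10 overlapped between these groups. In limma Cxcl14 rose by 0.42 ± 0.11 and Cxcl16 by 0.43 ± 0.11 (SE, adjusted p = 0.00954 and 0.0108), and the call of Cxcl16 was lost with quantile normalization. Cxcl12 and Cxcl10 were not called (adjusted p = 0.302 and 0.643 in limma). Cxcl16 shares 552 exon bases with Zmynd15 and Cxcl10 shares 133 with Art3, both on the opposite strand, and are to that extent uncertain. Cx3cl1 had RPKM values of 4.63, 4.98 and 4.92 in the WT libraries, 3.09, 3.39 and 2.55 in the DKO libraries and 2.89, 2.90 and 2.51 in the DKO_TG libraries. The DKO values of Cx3cl1 lay below all WT values, and it fell by 0.61 on the log2 scale (adjusted p = 0.00154; 0.504 with TPM, in limma). Markers of blood endothelium, a known source of Cx3cl1, were called in both directions in DKO. Of 8, 4 fell and 1 rose, where 25.9% and 30.8% of all genes did. Emcn, Kdr, Tek and Pecam1 fell (log2 change -0.74, -0.72, -0.66 and -0.35, adjusted p = 0.00231, 0.00466, 0.0306 and 0.0439 in limma). Vwf rose by 0.80 (adjusted p = 0.00177 in limma), and Cdh5, Esam and Tie1 were not called. In DKO_TG against DKO, Vwf alone was called, and it fell (log2 change -0.98, adjusted p = 0.0176 in limma). The 8 summed to 118 to 131 RPKM in WT, 73.6 to 117 in DKO and 92.4 to 110.0 in DKO_TG, and their part in the change of Cx3cl1 was not tested.

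The CC receptors Ccr2, Ccr1 and Ccr10 rose. Ccr2 had RPKM values of 0.843, 1.10 and 1.34 in the WT libraries, 4.72, 4.36 and 5.11 in the DKO libraries and 1.64, 1.55 and 1.90 in the DKO_TG libraries. Ccr2, which brings monocytes out of the blood into tissue, was about as high in each of the 3 DKO libraries. Its log2 change was 1.72 ± 0.13 (SE, adjusted p = 1.60e-05 in limma), and the call was lost in 0 of 20 alternatives. Ccr1 had RPKM values of 0.963, 0.892 and 1.51 in the WT libraries, 1.65, 2.25 and 2.34 in the DKO libraries and 1.14, 1.41 and 1.33 in the DKO_TG libraries. Ccr10 had RPKM values of 0.202, 0.181 and 0.192 in the WT libraries, 1.01, 0.519 and 0.833 in the DKO libraries and 1.02, 0.950 and 0.710 in the DKO_TG libraries. Ccr1, a receptor of Ccl6 and Ccl9 on myeloid cells, and Ccr10, the receptor of Ccl27 and Ccl28, had no overlap and rose by 0.68 and 0.88 (adjusted p = 0.00845 and 0.00209 in limma), both lost with quantile normalization.

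The other receptors mostly did not differ detectably between DKO and WT. Cx3cr1 had RPKM values of 4.51, 3.74 and 5.47 in the WT libraries, 4.23, 5.40 and 4.99 in the DKO libraries and 2.40, 2.13 and 2.26 in the DKO_TG libraries. Cxcr4 had RPKM values of 12.8, 6.29 and 5.61 in the WT libraries, 9.41, 11.7 and 5.67 in the DKO libraries and 19.2, 15.4 and 15.5 in the DKO_TG libraries. Cx3cr1, the fractalkine receptor of resident macrophages and monocytes, and Cxcr4 overlapped between WT and DKO, with log2 changes of 0.09 (95% interval from -0.22 to 0.40) and 0.14 (from -0.59 to 0.87; adjusted p = 0.584 and 0.721 in limma). Cx3cr1 shares 78 exon bases with an annotated gene on the opposite strand. Cxcr3 had RPKM values of 0.353, 0.426 and 0.526 in the WT libraries, 0.745, 0.602 and 0.618 in the DKO libraries and 0.296, 0.237 and 0.371 in the DKO_TG libraries. Cxcr6 had RPKM values of 1.05, 0.556 and 1.09 in the WT libraries, 1.16, 0.868 and 0.633 in the DKO libraries and 0.435, 0.374 and 0.499 in the DKO_TG libraries. Cxcr3, on activated T cells, was higher in each DKO library than in any WT library without passing the threshold (log2 change 0.31, adjusted p = 0.0653 in limma), and Cxcr6 overlapped (log2 change -0.01, adjusted p = 0.983 in limma). Ackr3 had RPKM values of 3.40, 3.66 and 2.83 in the WT libraries, 5.16, 5.79 and 4.48 in the DKO libraries and 4.94, 3.82 and 3.84 in the DKO_TG libraries. Ackr3, which scavenges Cxcl12, had no overlap and rose by 0.57 ± 0.14 (SE, adjusted p = 0.00685 in limma), a call lost with quantile normalization.

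Among the 21 genes that rose, DKO replicate 1 had the lowest of the 3 DKO values in 10, among them Ccl12, Ccl19, Ccl4, Ccl6, Ccl7, Ccl9, Ccr1, Cxcl1 and Cxcl13. Over all 34 tested members it was lowest in 14, as was DKO replicate 3, and over all genes DKO replicate 1 was lowest in 34.8%. The median coefficient of variation of the 34 tested members was 28.7% within DKO, 20.8% within WT and 18.8% within DKO_TG, and that of all genes tested was 15.2%, 13.9% and 7.59%. Some markers of leukocytes moved with these values and some did not. The 15 macrophage and monocyte markers, all above 0 in at least 1 library, summed to 217 to 270 RPKM in WT, to 302 in DKO replicate 1, 580 in replicate 2 and 410 in replicate 3, and to 197 to 249 in DKO_TG. The 8 neutrophil markers summed to 2.13 to 2.70 RPKM in WT, to 8.96, 24.2 and 102 in DKO, and to 3.01 to 3.67 in DKO_TG. The 6 B cell markers summed to 1.01 to 2.03, 2.65 to 5.92 and 1.34 to 1.66 RPKM, and the 12 T and NK cell markers to 4.76 to 5.07, 4.47 to 5.97 and 4.23 to 6.30. The 6 dendritic cell markers summed to 4.8 to 5.5 RPKM in WT, 7.0 to 7.9 in DKO and 7.2 to 8.2 in DKO_TG. Of the tested markers in DKO against WT, 10 of 14 macrophage genes rose and 1 fell, 5 of 6 neutrophil genes and 2 of 3 B cell genes rose, and 0 of 3 T and NK cell genes were called in limma (0 at an unadjusted p under 0.05, 0 in limma-voom). Over all tested genes 30.8% rose and 25.9% fell. The macrophage and monocyte gene that fell was Ly6c2 of monocytes (log2 change -0.63, adjusted p = 0.0102 in limma). Adgre1 (F4/80), a defining macrophage gene, rose by 1.46, the neutrophil gene Csf3r by 1.76 and the B cell gene Cd79b by 1.72 on the log2 scale (adjusted p = 0.000537, 0.000161 and 0.00288 in limma). Of 3 tested dendritic cell genes 2 rose, Zbtb46 by 0.38 and Clec9a by 0.55 (adjusted p = 0.00842 and 0.0210 in limma). Cd209a of the same list, under the filter, went the other way, averaging 0.531 RPKM in WT and 0.0256 in DKO. The 5 erythrocyte genes summed to 361 to 1657 RPKM in WT, 562 to 2409 in DKO and 198 to 285 in DKO_TG. The part of these markers in the chemokine differences was not tested. The B cell genes Ms4a1 and Pax5 were at no more than 0.116 RPKM on average in any group, and Cxcr5, the receptor of Cxcl13, at no more than 0.0621 RPKM in any library.

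**Figure D3:**
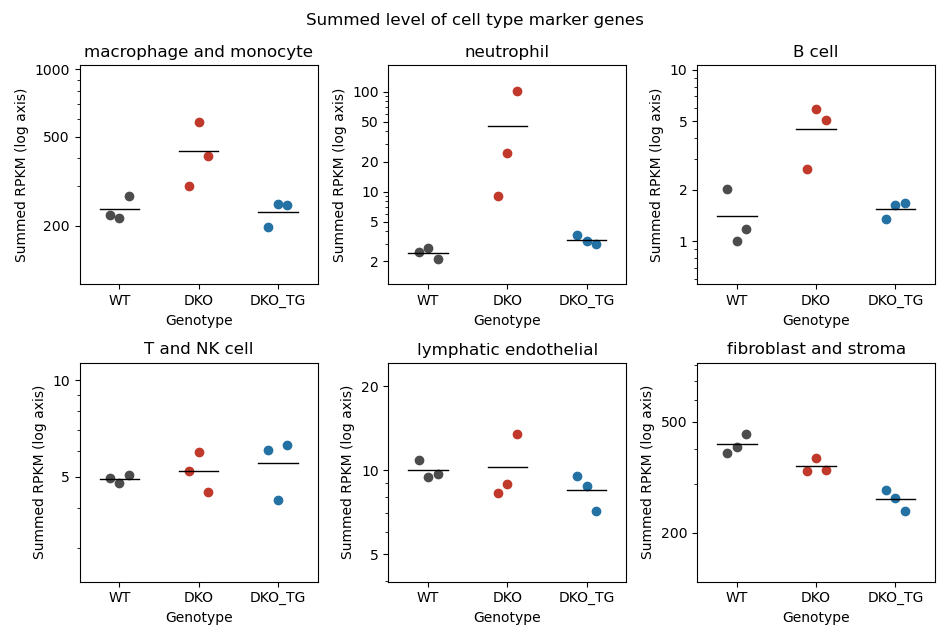
Summed RPKM of fixed marker genes of 6 cell types in each library, on a log axis, with the group mean as a line. The macrophage, neutrophil and B cell sums are highest in DKO, with DKO replicate 1 the lowest DKO library in all 3, and the T and NK cell sums overlap between the groups.

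In the libraries with the transgene label, 6 of the 34 genes were lower than in DKO and 0 were higher in limma. Upwards, 2 genes (Ccl25 and Cxcr4) had an unadjusted p under 0.05, and limma-voom called 0. Among those that fell were Cxcl13, Ccl8, Ccr2, Cx3cr1 and Cxcl14. In limma 2.23% of all tested genes were called in this comparison, 0.498% higher and 1.73% lower. The median log2 change of the 34 was -0.50, against 0.03 for all genes tested. All DKO_TG libraries were below all DKO libraries for 14 of the 34 and above them for 2, and each was the case for 12.1% of all genes. Ccl4, Ccl7, Cxcl1, Cxcl13 and Cxcr3 are among the 14, and Cxcl13 is among the 6. They were tested only because of their DKO values, so they are no support for the direction of the set. This comparison shares the DKO libraries with the one above, so a high DKO value raises both, and they are given side by side only. The count of 6 was 11 without DKO replicate 1, where Ccl6, Ccl4, Ccl9, Cxcl1 and Ccl7 were also called, and 2, 3 and 2 without DKO_TG replicates 1, 2 and 3. In the fit of only these 6 libraries it was 3.

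**Figure D4:**
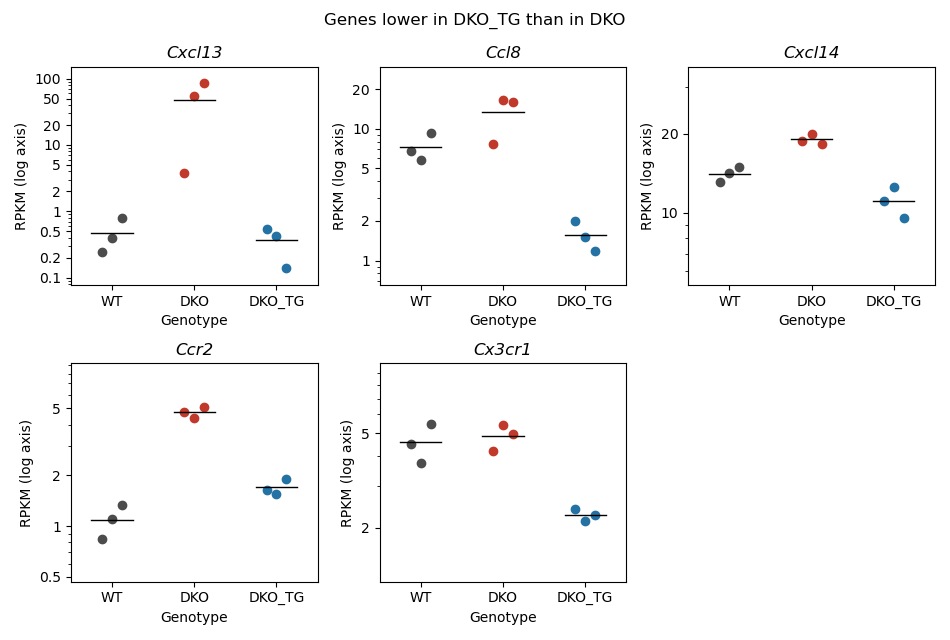
RPKM in each library, on a log axis, of 5 genes called lower in DKO_TG than in DKO, with the group mean as a line. DKO_TG lies below DKO in all 5. Against WT it is lower for Ccl8, Cx3cr1 and Cxcl14, higher for Ccr2 and overlapping for Cxcl13.

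Cxcl13, whose values are given above, was between 0.140 and 0.535 RPKM in DKO_TG, which overlapped WT, with DKO_TG replicate 3 below every WT library. Its log2 change from DKO was -4.99 ± 0.94 (SE, adjusted p = 0.0361 in limma). That call was lost in 12 of 20 alternatives, among them limma-voom (adjusted p = 0.257) and limma without the filter (adjusted p = 0.078). The 12 include the omission of any library other than DKO replicate 1. Ccl8 was lowest in DKO_TG, at 1.18 to 2.01 RPKM, below every WT and every DKO library. It fell by 2.69 ± 0.30 (SE) on the log2 scale from DKO (adjusted p = 0.00702) and by 1.91 from WT (adjusted p = 0.000918 in limma). Ccl8 lies at 82115185 to 82116799 on chromosome 11, plus strand, and none of its neighbours Ccl2, Ccl7, Ccl11 and Ccl12 was called in DKO_TG against DKO or WT. Their log2 changes from DKO were -0.43, -0.83, 0.24 and -0.54 (adjusted p = 0.567, 0.131, 0.660 and 0.398 in limma).

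Ccr2 fell by 1.25 ± 0.13 on the log2 scale from DKO (SE, adjusted p = 0.00597 in limma), a call lost in 0 of 20 alternatives. It stayed above every WT library in all 3 DKO_TG libraries, and against WT it was called (log2 change 0.47, adjusted p = 0.0151 in limma). Against WT, Ccr2 was not called without DKO_TG replicate 3 or with quantile normalization (log2 change 0.09). Cx3cr1 overlapped between WT and DKO and was lower in all DKO_TG libraries, at 2.13 to 2.40 RPKM. It fell by 0.95 from DKO and by 0.86 from WT on the log2 scale (adjusted p = 0.0170 and 0.000997 in limma), and the former call was lost without any one of the DKO_TG libraries. Cxcl14 fell by 0.76 from DKO (adjusted p = 0.0156) and by 0.34 from WT (adjusted p = 0.0253 in limma). Its call from DKO was lost without DKO_TG replicate 1 or 3, and the call from WT also without WT replicate 2 or 3 and in 3 other scalings, with the direction turned to 0.17 with TPM.

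Ccr1, Cxcl1, Cxcl16, Cxcr3, Cxcr6, Ccl4, Ccl7 and Ccl12 were lower in every DKO_TG library than in any DKO library without passing the threshold. Their adjusted p in limma was between 0.0714 (Cxcl16) and 0.398 (Ccl12). Ccl25 and Cxcr4 were higher in every DKO_TG library than in any DKO library, also without a call (adjusted p = 0.255 and 0.207 in limma). The markers moved here too: 8 of 14 macrophage genes fell, led by C1qc and C1qb (log2 change -1.74 and -1.71, adjusted p = 0.0143 and 0.0164 in limma), as did Csf3r of 6 neutrophil genes and Cd79b of 3 B cell genes. Over all tested genes 1.73% were lower and 0.498% higher. Lyz2 and Mertk, also macrophage genes, were not called (log2 change 0.21 and -0.30, adjusted p = 0.708 and 0.485 in limma). Of 3 dendritic cell genes 0 were called in limma (0 at an unadjusted p under 0.05, 0 in limma-voom). The part of these markers in the differences from DKO was not tested.

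Against WT, 10 of the 34 genes were higher in DKO_TG and 5 lower, while limma called 51.4% of all tested genes, 29.1% higher and 22.3% lower. The 10 were Ccl25, Ccl27a, Ccl27b, Ccl19, Ccl19-ps3, Cxcl1, Cxcl12, Ccr2, Ccr10 and Cxcr4, and the 5 were Ccl8, Cx3cr1, Cx3cl1, Cxcr6 and Cxcl14. Of the 10, 4 lie together on chromosome 4 (Ccl19, Ccl19-ps3, Ccl27a and Ccl27b), where copies can share reads. The median log2 change of the 34 was 0.25, and 0.03 over all genes. No overlap was seen upwards for 11 of the 34 and downwards for 6, against 35.6% and 30.2% of all genes. Ccl25, Ccr10 and Cxcl1, among the 10 and the 11, were below 0.5 RPKM in all WT libraries. They were tested only because of values outside WT, so they are no support for the direction of the set. With TPM scaling 18 were higher and 2 lower, with quantile normalization 5 and 6, and with the plain total of reads 11 and 3. TPM and the plain total moved the median of all genes to 0.51 and 0.25, and the share of called genes that were higher from 56.6% to 90.8% and 77.0%. This comparison shares its WT libraries with DKO against WT. Markers moved here as well: 5 of 14 macrophage and monocyte genes were lower, led by Ly6c2 (log2 change -0.67, adjusted p = 0.00865 in limma), and 2 were higher. Lower were also 5 of 7 fibroblast, 4 of 6 surface epithelium, 3 of 5 erythrocyte and 3 of 8 blood endothelial genes. Higher were 3 of 4 oocyte genes and 3 of 3 tested dendritic cell genes. The part of these markers in the differences of Ccl8, Cx3cr1 and the other genes was not tested.

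Ccl25, Ccl27a and Ccl27b were higher than in WT in both DKO and DKO_TG. They differed from WT by 1.30, 1.25 and 1.09 in DKO_TG on the log2 scale (adjusted p = 1.02e-05, 7.41e-05 and 0.000162 in limma). From DKO they differed by 0.23, 0.06 and -0.08, with 95% intervals from 0.03 to 0.43, from -0.22 to 0.34 and from -0.36 to 0.20. Ccl19 and Ccr10 also rose from WT, by 0.72 and 1.00 (adjusted p = 0.00300 and 0.00112 in limma), both lost with quantile normalization. Cxcl1 rose by 0.60 (adjusted p = 0.0112 in limma), on 5 reads or fewer in each WT library, and its direction turned to -0.18 with quantile normalization. Ccl19-ps3 rose by 1.06 (adjusted p = 0.0298 in limma), a call lost in 7 of 20 alternatives, among them without WT replicate 2 or 3 or DKO_TG replicate 2 or 3. Cx3cl1 fell by 0.71 and Cxcr6 by 0.56 on the log2 scale (adjusted p = 0.000767 and 0.0394 in limma). The call of Cx3cl1 was lost with TPM, and that of Cxcr6 in 8 of 20 alternatives, among them without WT replicate 1 or 3 or any one of the DKO_TG libraries. Ccl21a and Ccl21b were not called between DKO_TG and either other group, and their DKO_TG values ran from 34.9 to 72.4 RPKM.

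Some receptors moved with a ligand and some did not. In DKO against WT, Ccr10 rose with Ccl27a and Ccl27b, Ccr1 with Ccl9, and Ccr2 with Ccl7 and Ccl12. Ccl12 overlapped between the groups and lost its call in 11 of 20 alternatives, and Ccl7 was tested only because of its DKO values. Ccr10 was below 0.5 RPKM in all WT libraries, and Ccl27a and Ccl27b can share reads. The plot of partners shows other pairs. The values of Cxcl12, Cxcr4 and Ackr3 stand above. Cxcr4 was higher in all DKO_TG libraries than in any other library (log2 change from WT 1.06 ± 0.32 SE, adjusted p = 0.0223 in limma), although WT replicate 1 was more than 2 times WT replicates 2 and 3. The call was lost without WT replicate 2 or 3 or DKO_TG replicate 1. Cxcl12 rose from WT by 0.54 (adjusted p = 0.0318 in limma), with DKO_TG replicate 2 the highest, and was not called without a filter, WT replicate 2 or 3, or DKO_TG replicate 2 or 3. Ackr3 rose in DKO and was not called in DKO_TG against WT (log2 change 0.31, adjusted p = 0.0872 in limma). Cx3cl1 was lower than in WT in both other groups, and its receptor Cx3cr1 was lower in DKO_TG alone of the 2. Cxcl16 rose in DKO while Cxcr6 did not differ detectably there and fell in DKO_TG against WT. Ccl2, the main ligand of Ccr2, was not called in DKO, with a 95% interval of its log2 change from -0.14 to 1.33.

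**Figure D5:**
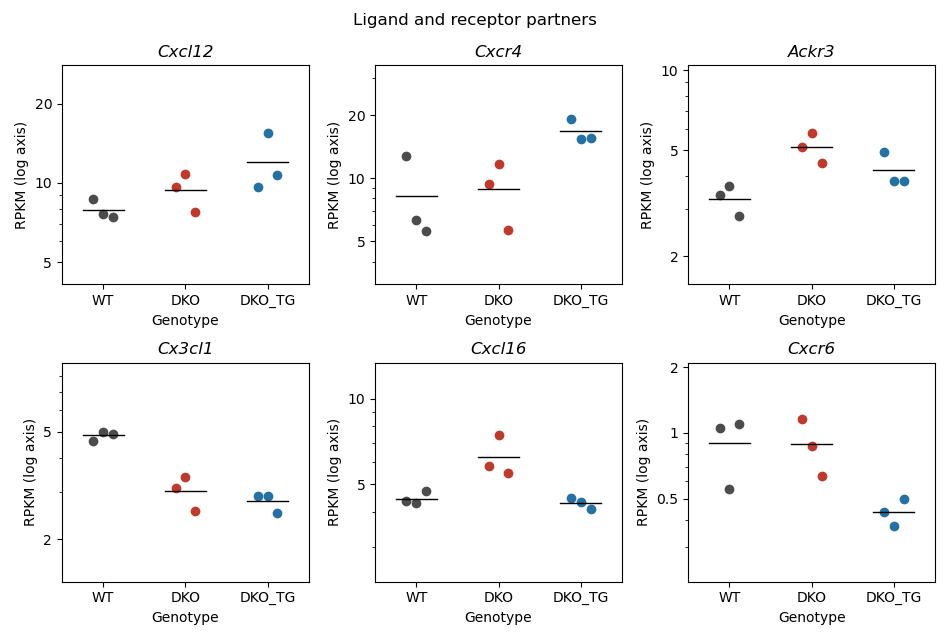
RPKM in each library, on a log axis, of Cxcl12 with its receptors Cxcr4 and Ackr3, of Cx3cl1, and of Cxcl16 with its receptor Cxcr6; lines are group means. Cxcr4 is highest in DKO_TG, Ackr3 and Cxcl16 in DKO and Cx3cl1 in WT, and Cxcr6 is lowest in DKO_TG.

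Partners of other chemokines were too low to test. Ccr7, the receptor of Ccl19 and Ccl21, was at 0.0948 ± 0.0139, 0.263 ± 0.0207 and 0.148 ± 0.0209 RPKM in the 3 genotypes WT, DKO and DKO_TG (SD, n = 3 each), on 8 to 32 reads in the WT and DKO libraries. Cxcr2, the receptor of Cxcl1 on neutrophils, was at 0.0334 ± 0.0221, 0.272 ± 0.163 and 0.124 ± 0.0523 RPKM. Ccl28, a mucosal ligand of Ccr10, went the other way, at 0.321 ± 0.0977, 0.0361 ± 0.0168 and 0.0570 ± 0.0117 RPKM. The group means of Ccr7 and Cxcr2 were thus highest in DKO, with DKO and DKO_TG overlapping for Cxcr2, and the WT values of Ccl28 were all above those of the other libraries. In a limma fit without the filter, where 31.8% of 38309 genes were called, Ccl3, Cxcr2, Ccr7 and the atypical receptor Ackr2 were higher in DKO than in WT and Ccl28 was lower, out of 27 untested members above 0. In DKO_TG against WT Ccl28 was lower (28.7% of all genes called), and in DKO_TG against DKO 0 of the 27 were called in limma (6 at an unadjusted p under 0.05), with 0.6% of all genes called. Ccl3, a ligand of Ccr1, was at 0.0655 ± 0.0135, 0.455 ± 0.260 and 0.178 ± 0.0150 RPKM, and Ackr2, which clears inflammatory CC chemokines, at 0.295 ± 0.0180, 0.515 ± 0.103 and 0.331 ± 0.0334.

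Of the other untested members, Ackr1, Xcl1, Cxcl9 and Cxcl5 reached 0.765, 0.594, 0.647 and 0.524 RPKM in their highest library, and Ackr4, Cxcl2, Ccl24, Cxcl17, Ccl22 and Ccr3 reached 0.139 to 0.349 in theirs. Cxcl2, a neutrophil chemokine like Cxcl1, was at 0 in all WT libraries and reached 0.291 RPKM, on 25 reads, in DKO_TG replicate 2. The remaining 12 stayed below 0.1 RPKM in every library: Ccl1, Ccl20, Ccl26, Ccr4, Ccr6, Ccr8, Ccr9, Cxcl3, Cxcl11, Cxcl15, Cxcr1 and Cxcr5. Ccr9, the receptor of Ccl25, and Ccr6, that of Ccl20, were thus close to 0 in each group.

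Genes that carry the chemokine signal inside cells were called in both directions, as were all tested genes (30.8% higher and 25.9% lower in DKO against WT, and 2.23% called in DKO_TG against DKO). Of 16 tested genes of G protein and kinase signalling, 8 rose and 5 fell in DKO against WT, with a median log2 change of 0.38. Those that rose were led by Pik3r5, a subunit of the phosphoinositide kinase of leukocytes (log2 change 1.84), the exchange factor Vav1 (1.37) and Plcb3 (0.47), with adjusted p = 0.000399, 0.00124 and 0.00376 in limma. The widely expressed Gng2, Gnb1 and Gnai2 were the leading ones that fell, by 0.53, 0.57 and 0.53 on the log2 scale (adjusted p = 0.00109, 0.00172 and 0.00300 in limma). In DKO_TG against DKO 2 of the 16 fell, Rac2 of leukocytes by 1.58 and Vav1 by 1.23 (adjusted p = 0.0171 and 0.0357 in limma). Of 8 tested genes that switch receptors off, 3 rose in DKO, a share near that of all genes: the kinase Grk3 (2.01) and the arrestins Arrb2 (1.20) and Arrb1 (0.29), with adjusted p = 2.65e-06, 0.000128 and 0.0152 in limma. In DKO_TG against DKO 0 of the 8 were called in limma (4 at an unadjusted p under 0.05, 1 in limma-voom), and Grk3 had a log2 change of -0.50 there (adjusted p = 0.0600).

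Among 8 tested inducers of chemokine genes, 6 rose and 1 fell in DKO against WT, where 30.8% and 25.9% of all genes did. The interleukin 1 receptor Il1r1 rose by 1.11, the interferon factor Irf1 by 0.92 and the NF-kappaB subunit Nfkb1 by 0.42 on the log2 scale (adjusted p = 0.000328, 0.000494 and 0.00124 in limma), and Tnfrsf1a, a receptor of tumour necrosis factor, fell by 0.47 (adjusted p = 0.00660). Tnf was at 0 in all WT libraries and averaged 0.479 ± 0.246 RPKM for DKO and 0.0948 ± 0.0269 for DKO_TG (SD, n = 3 each), under the filter. Between DKO_TG and DKO 0 of the 8 were called in limma (4 at an unadjusted p under 0.05, 0 in limma-voom). Of 5 tested proteases that cut or shed chemokines, Mmp9 (log2 change 0.65) and Adam17 (0.22) rose and Mmp2 (-1.20) and Mmp14 (-0.48) fell in DKO (adjusted p = 0.0120, 0.0365, 0.00190 and 0.0104 in limma), and in DKO_TG against DKO 0 were called in limma (0 at an unadjusted p under 0.05, 0 in limma-voom). Of 5 tested genes of the family whose symbols the rule does not take, 3 fell in DKO: Gpr182, a scavenging receptor of endothelium, by 0.88, Ccrl2 by 1.23 and the chemerin receptor Cmklr1 by 0.45 (adjusted p = 0.000488, 0.00327 and 0.0129 in limma). In DKO_TG against DKO 0 of these 5 were called in limma (3 at an unadjusted p under 0.05, 0 in limma-voom). The platelet chemokine Pf4 had group means of 4.63 ± 0.458, 3.77 ± 0.249 and 3.38 ± 0.463 RPKM (SD, n = 3 each).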

How the data were processed

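Ovarian RNA of 9 libraries was sequenced, and the authors deposited 1 table of RPKM values for 54838 genes, with 1 column per library. The submitters' processing notes name the build mm10 and, as tools, HTSeq 0.5.4p5, HISAT2 2.1.0, DESeq2 1.2.8 and cutadapt. How the authors turned reads into RPKM, with which annotation and whether by strand, is not given in the sources used here. Groups come from the sample titles, and the DKO_TG columns, which spell the transgene differently, were matched by group and number.

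Identifiers were matched to GENCODE M21 (54809 genes), whose exon lengths turned 97.8% of values above 0 into whole reads, within 0.01 read or a relative 1e-06. The library size behind the RPKM was 0.793 to 0.920 times the recovered total in WT and 1.03 to 1.11 times in the other libraries, so the deposited values carry a rescaling. RPKM are not counts, so log2(RPKM + 0.5) was tested with limma 3.58.1 (trended eBayes, R 4.3.3) in one fit of all 9 libraries, over 18889 genes with at least 0.5 RPKM in at least 3 libraries. Benjamini-Hochberg adjustment ran over all of them, with a threshold of 0.05. Fold changes on this scale understate those of low genes. The fit was tested on simulated data. No label says that the libraries are separate animals: p-values measure only the spread among these 9 samples, which may be technical.

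1 tested member is in the counts but not reported here. Named genes are the other tested members, untested ones reaching 0.1 RPKM, and ligand and receptor partners. Of each fixed list, those with the smallest adjusted p are named. Tnf, Cd209a, Lyz2, Ly6g, Ms4a1, Pax5, Fshr and the untested members below 0.1 RPKM were named after their values were seen. The members and lists were chosen with earlier results of these data known. Alternatives changed the scaling (TPM, median ratio, quantile, plain total of reads), the pseudocount (0.1 or 1) or the filter (none, or an RPKM of 1), ran limma-voom on recovered reads, took the replicate number as a block, fitted only the 6 libraries compared, or left out each library.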

Additional observations from a re-analysis of the deposited data

How the results depend on the processing

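Of the calls reported, 8 of 23 in DKO against WT (among them Cxcl14, Ccl25, Cxcl1, Ccr2, Ccl27a, Ccl21a and Ccl27b), 2 of 6 in DKO_TG against DKO (Ccl8 and Ccr2) and 5 of 15 in DKO_TG against WT (Ccl8, Ccl25, Cx3cr1, Ccl27a and Ccl27b) were made in every alternative that could test the gene; Cxcl1 could not be tested with a filter at an RPKM of 1. Leaving out each library gave 18 to 22 calls in DKO against WT (17 to 21 higher, 1 to 3 lower), 2 to 11 in DKO_TG against DKO, all lower, and 10 to 16 in DKO_TG against WT (7 to 11 higher, 3 to 6 lower). Quantile normalization gave 13 calls in DKO against WT, 10 of them higher, and 5 higher in DKO_TG against WT. The 2 lower genes of DKO against WT became 1 without a filter, with a filter at an RPKM of 1, with the plain total and in the fit of 6 libraries, and 0 with TPM. In DKO_TG against WT, TPM gave 18 higher and 2 lower and the plain total 3 lower. In DKO_TG against DKO the fit of 6 libraries gave 3 lower genes. The cause of these changes was not tested. Cxcl14 in DKO_TG against WT turned to 0.17 with TPM (adjusted p = 0.366) and Cxcl1 to -0.18 with quantile normalization (adjusted p = 0.436, both in limma). With the replicate number as a block, 19, 3 and 14 genes were called in the 3 comparisons. Same-numbered libraries did not visibly deviate together (correlations of -0.31 to 0.14 over 9 pairs, and of -0.26 to 0.32 over 18 other pairs). With 3 libraries a group this cannot exclude that the numbers pair the samples. Depth limits the low genes: Cxcl1 in WT rests on 3 to 5 reads per library.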
